A study of Mus musculus with 39 samples.

Results

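The immunoglobulin transcripts described here are the genes of the antibody loci and of the joining chain in a bulk RNA sequencing count table of 39 libraries from sorted mouse lung cells. Genes were taken by symbol (heavy, kappa and lambda variable genes, heavy and light constant genes, Jchain) where their counts summed over all 39 libraries reached at least 20, so the members were chosen by their summed counts. Of 43430 genes in the table, 292 had a matching symbol, 164 of those had at least 1 count, and 78 passed the threshold. The 78 members were 31 heavy variable genes of 175, 36 kappa variable genes of 103, 2 lambda variable genes of 3, 6 heavy constant genes of 8 (Ighm, Ighd, Igha, Ighg1, Ighg2b and Ighg2c), Igkc, Iglc2 and Jchain. Just inside the threshold were Ighv1-47 with 21 counts and Igkv17-121 and Igkv8-21 with 23 each. Just outside it were Igkv2-137 with 19 counts and Igkv4-61 and Igkv14-126 with 18 each. These summed counts are a description.

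All mice were C57BL/6J, and 20 libraries were of lung monocytes from naive mice, whereas 19 were of Siglec F-low alveolar macrophages that derive from monocytes, sorted after bleomycin, which injures the lung. The 8 groups crossed age (young or old) and treatment (Saline or ISRIB, an inhibitor of the integrated stress response) with the kind of cell, and each had 5 libraries except the young ISRIB macrophages, which had 4. The labels put the young mice at 8 to 12 weeks and the old mice above 18 months, while the series text gives 3 to 5 and 18 to 24 months. By that text, daily intraperitoneal ISRIB or vehicle began on day 7 and cells were taken on day 21 after bleomycin. That text does not mention naive mice, but the labels mark every monocyte library as naive, and the groups here follow the labels. Every macrophage library came from bleomycin-treated and every monocyte library from naive mice, so kind of cell and injury cannot be told apart. Nothing in the labels says whether a library is 1 animal or a pool.

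B cells build an antibody heavy chain by joining a variable, a diversity and a joining segment upstream of the constant genes, and a light chain from a variable and a joining segment upstream of a kappa or lambda constant gene. Naive B cells make IgM and IgD from Ighm and Ighd, and class switching later replaces these with an IgG, IgA or IgE constant gene. Plasma cells secrete antibody in bulk, and the joining chain links IgM and IgA into polymers. Each B cell clone carries its own rearranged heavy and light variable genes and passes them on to its descendants.

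Between 4595331 and 16056708 counts were assigned to genes per library, the median being 8628240. Members took up 48 to 263 counts in a young macrophage library, 154 to 4938 in old Saline and 1642 to 6124 in old ISRIB macrophages, and 1014 to 3349 in a monocyte library. The labelled kinds of cell differed in 1 marker of each: Siglecf was at 46.8 to 156 CPM (counts per 1e+06 counts of the library) in macrophages and at most 1.57 CPM in monocytes, and Ly6c2 was at 278 to 698 CPM in monocytes and at most 7.01 CPM in macrophages. Other markers are not given here. Over the 19 macrophage libraries the log2 CPM of Siglecf followed that of the summed members (Pearson r 0.845).

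The variable gene sequences matter for reading the counts, because near-identical genes can share reads. The variable genes found in the most libraries of old macrophages were the kappa gene Igkv3-2 (ENSMUSG00000095351, chromosome 6, 70698449 to 70699067, plus strand) and the heavy gene Ighv1-53 (ENSMUSG00000093894, chromosome 12, 115158403 to 115158835, minus strand). The first 300 coding bases of each are shown with those of the members closest to them, from the GENCODE vM21 transcripts of assembly GRCm38, 5′ to 3′ on the coding strand. The germline sequences are printed in lower case, and capitals mark the bases at which a gene differs from the first one of its set.
Igkv3-2: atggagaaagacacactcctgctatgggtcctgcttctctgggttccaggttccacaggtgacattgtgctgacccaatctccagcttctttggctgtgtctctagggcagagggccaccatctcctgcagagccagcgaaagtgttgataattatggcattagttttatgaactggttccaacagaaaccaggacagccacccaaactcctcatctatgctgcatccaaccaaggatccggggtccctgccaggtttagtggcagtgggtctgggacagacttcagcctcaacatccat
Igkv3-4: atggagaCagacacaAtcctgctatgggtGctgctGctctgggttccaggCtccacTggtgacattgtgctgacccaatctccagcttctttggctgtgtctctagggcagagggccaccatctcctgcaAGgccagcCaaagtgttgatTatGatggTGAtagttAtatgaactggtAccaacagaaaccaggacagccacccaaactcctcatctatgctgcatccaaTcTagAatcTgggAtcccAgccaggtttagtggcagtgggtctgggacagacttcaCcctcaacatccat
Ighv1-53: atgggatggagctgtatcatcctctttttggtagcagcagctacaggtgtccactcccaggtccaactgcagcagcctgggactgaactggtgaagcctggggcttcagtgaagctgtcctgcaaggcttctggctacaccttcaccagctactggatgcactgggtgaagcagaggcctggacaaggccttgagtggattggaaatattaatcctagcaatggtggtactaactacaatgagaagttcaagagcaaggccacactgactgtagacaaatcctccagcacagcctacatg
Ighv1-55: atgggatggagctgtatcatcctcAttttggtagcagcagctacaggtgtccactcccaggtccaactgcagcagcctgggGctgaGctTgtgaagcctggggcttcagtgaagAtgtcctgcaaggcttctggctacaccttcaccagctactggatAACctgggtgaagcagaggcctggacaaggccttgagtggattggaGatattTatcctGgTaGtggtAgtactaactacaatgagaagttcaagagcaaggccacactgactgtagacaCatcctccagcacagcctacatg
Ighv1-64: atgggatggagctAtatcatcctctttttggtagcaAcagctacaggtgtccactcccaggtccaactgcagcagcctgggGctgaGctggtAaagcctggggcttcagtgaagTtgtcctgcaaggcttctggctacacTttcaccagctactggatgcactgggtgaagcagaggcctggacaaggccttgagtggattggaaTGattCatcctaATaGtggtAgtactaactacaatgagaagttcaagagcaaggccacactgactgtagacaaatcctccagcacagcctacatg
Ighv1-72: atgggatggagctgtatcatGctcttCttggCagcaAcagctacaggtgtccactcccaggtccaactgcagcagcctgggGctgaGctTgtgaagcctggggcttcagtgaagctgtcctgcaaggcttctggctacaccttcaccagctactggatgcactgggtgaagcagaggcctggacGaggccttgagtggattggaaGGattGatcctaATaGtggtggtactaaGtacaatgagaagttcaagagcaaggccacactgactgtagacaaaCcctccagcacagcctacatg
Igkv3-4 was identical to Igkv3-2 at 91.4% of all 359 coding bases, with 31 differences and a longest identical run of 73 bases. Ighv1-55, Ighv1-64 and Ighv1-72 were each identical to Ighv1-53 at 95.4% of all 351 coding bases, with 16 differences and longest identical runs of 63, 76 and 94 bases. Of all 50-base windows of its transcript, 21.3% of Igkv3-2 and 57.6% of Ighv1-53 occurred in another annotated gene, so the values of Ighv1-53 in particular are uncertain between it and its relatives. This share was 0% for Ighm, Ighd, Igha and Igkc, 7.65% for Iglc2 and 0.288% for Jchain, and over the 69 variable members it had a median of 22.8% and ran from 0% to 92.5%.

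The 31 heavy variable members all lay on the minus strand of chromosome 12 between 113597446 and 115953005, and 18 of them belonged to family 1. The 36 kappa variable members lay on chromosome 6 between 67609713 and 70699067, 14 of them on the plus strand. Igkv3-2 was the kappa variable member nearest to Igkc, 27367 bases away, and the farthest lay 3115926 bases away.

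Summed over all members, immunoglobulin RNA was low in young macrophages and high in monocytes of both ages. Old macrophages were higher than young in almost every library, and the 4 monocyte groups overlapped in their sum. The sum was 32.8, 9.31, 13.6, 8.42 and 8.41 CPM in young Saline macrophages (replicates 1 to 5), and 25.3, 16.9, 7.46 and 10.4 CPM in young ISRIB macrophages. In old Saline macrophages it was 115, 144, 182, 20.4 and 503 CPM, and in old ISRIB macrophages 192, 261, 765, 207 and 489 CPM. All old libraries but Saline replicate 4 therefore lay above every young one. Group means in young macrophages were 14.5 ± 10.4 CPM under Saline (SD, n = 5) and 15 ± 7.93 CPM under ISRIB (SD, n = 4). In old macrophages they were 193 ± 183 CPM under Saline and 383 ± 245 CPM under ISRIB (SD, n = 5 each). Without old Saline replicate 5 the old Saline mean was 115 CPM. Monocytes averaged 197 ± 32.7 CPM in young Saline, 177 ± 35.7 in young ISRIB, 231 ± 110.5 in old Saline and 239 ± 54.6 in old ISRIB mice (SD, n = 5 each). In bulk samples, fewer cells of a type and less RNA per cell cannot be told apart.

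Ighm (ENSMUSG00000076617, chromosome 12, 113418558 to 113422730), the constant gene of the IgM heavy chain, held most of the counts. In monocytes its level was 194, 141, 199.5, 227 and 192 CPM in young Saline, 206, 134, 157, 181 and 131 CPM in young ISRIB, 232, 159, 142, 114 and 229.7 CPM in old Saline, and 168, 148, 158, 144 and 119 CPM in old ISRIB mice. These 4 groups overlapped throughout, and the age difference averaged over treatment did not pass the test (log2 difference -0.13 ± 0.12, SE, adjusted p 0.845). In macrophages the level was 24.5, 3.23, 10.6, 4.50 and 5.17 CPM in young Saline and 14.1, 10.5, 5.60 and 6.42 CPM in young ISRIB mice. It was 56.7, 72.9, 97.2, 7.80 and 276 CPM in old Saline and 88.1, 125, 380.3, 113 and 226 CPM in old ISRIB macrophages. Old Saline replicate 4 fell within the young range, and the other 9 old libraries lay above all 9 young ones.

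Ighm rose with age in macrophages by a log2 difference of 3.52 ± 0.62 (SE, adjusted p 0.00705) under Saline and 4.29 ± 0.69 (SE, adjusted p 0.00164) under ISRIB, by edgeR's quasi-likelihood test. Neither call was made by limma voom, where the adjusted p was 0.133 and 0.0923. Averaged over treatment the rise was 3.90 ± 0.47 (SE, adjusted p 1.32e-05), and the averaged call was kept by every alternative run and without any 1 of the 19 libraries. In a fit of all 39 libraries the age effect on Ighm was larger in macrophages than in monocytes, by a log2 difference of 4.03 ± 0.49 (SE, adjusted p 2.36e-06). Ighm was the 1 member called for this difference of age effects among the 10 in the fit, beside 0.743% of all 13587 genes and 0.449% higher. Igha, Ighg2b and Ighv1-55 had no count in at least 3 of the 4 young groups, so this test says nothing of them. Jchain, Igkv3-2 and Ighv1-53 had at most 6 counts in any young group and could hardly be called. The 1 call therefore does not set Ighm apart from these members. Igkc had a difference of 2.50 ± 0.69 (SE, adjusted p 0.0710). Of 19 tested genes of a B cell list 2 passed this test, Cd79a (2.51 ± 0.52, SE, adjusted p 0.00900) and Cd79b (2.02 ± 0.49, SE, adjusted p 0.0319). Of 15 tested genes of a plasma cell list 1 passed, Pou2af1, which B and plasma cells express (2.99 ± 0.59, SE, adjusted p 0.00578). The median differences were 1.23 over the B cell list and 0.061 over the plasma cell list, beside 0.0069 over all genes. The part of these genes in the result for Ighm was not tested.

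Between kinds of cell, Ighm was lower in young Saline macrophages than in young Saline monocytes by a log2 difference of -4.33 ± 0.53 (SE, adjusted p 4.49e-09), and in old Saline mice the difference was -0.65 ± 0.44 (SE, adjusted p 0.214). At the young age 2 of 10 members passed, Ighm and Ighd, both lower in macrophages, and 60% of all genes passed, 29% lower. At the old age 1 of 10 passed, Igkc, which was higher in macrophages, and 57% of all genes passed, 29.7% higher. In young Saline mice 5 of the 10 (Jchain, Igkv3-2, Ighv1-53, Ighv1-55 and Ighg2b) had at most 5 counts in either kind of cell and could hardly be called, so nothing is read from these counts beside the share of all genes.

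**Figure D1:**
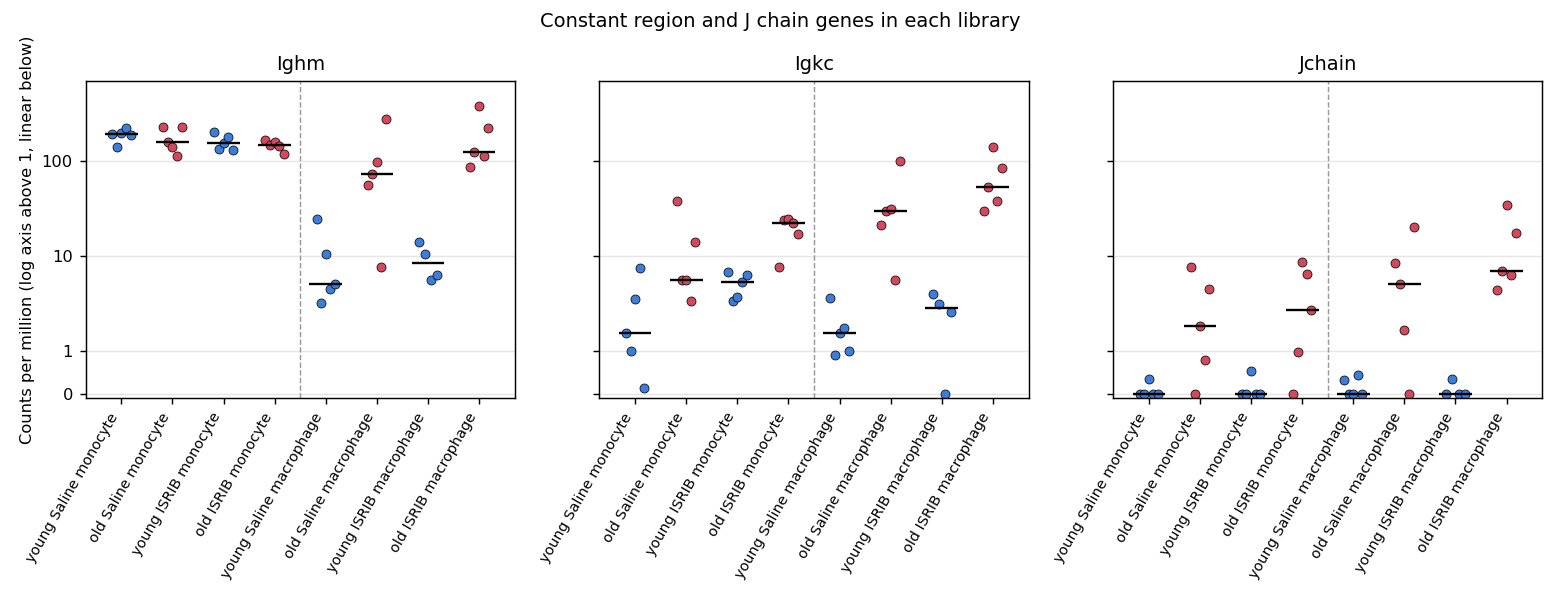
CPM of Ighm, Igkc and Jchain in each of the 39 libraries, by group (blue young, red old, black bar the group median, log axis above 1 and linear below). Ighm stayed between 114 and 232 CPM in all monocyte libraries and rose from at most 24.5 CPM in young to as much as 380.3 CPM in old macrophages, while Igkc and Jchain were higher in most old libraries of both cell kinds.

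What accompanied Ighm varied with age and kind of cell, with overlap between groups. In young monocytes Ighm made up 94.6% to 98.8% of all member counts under Saline and 90.2% to 92.9% under ISRIB. In old Saline monocytes its share was 59.8%, 90.6%, 87.3%, 90.7% and 75.6%, and in old ISRIB monocytes 90.5%, 60.3%, 51.6%, 52.4% and 64.9%. Old macrophages held 38.3% to 54.9% of their member counts in Ighm, a range that includes the 51.6% and 52.4% of old ISRIB monocytes. In young macrophages Ighm was at 3.23 to 24.5 CPM and the other members together at 1.87 to 11.3 CPM, on few counts. The sum of all members other than Ighm was 2.25 to 20.2 CPM over the 10 young monocyte libraries. It was 156, 16.4, 20.5, 11.8 and 74.2 CPM in old Saline and 17.6, 97.2, 149, 131 and 64.3 CPM in old ISRIB monocytes, so 6 old libraries lay well above the young range and 4 lay near or within it.

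**Figure D2:**
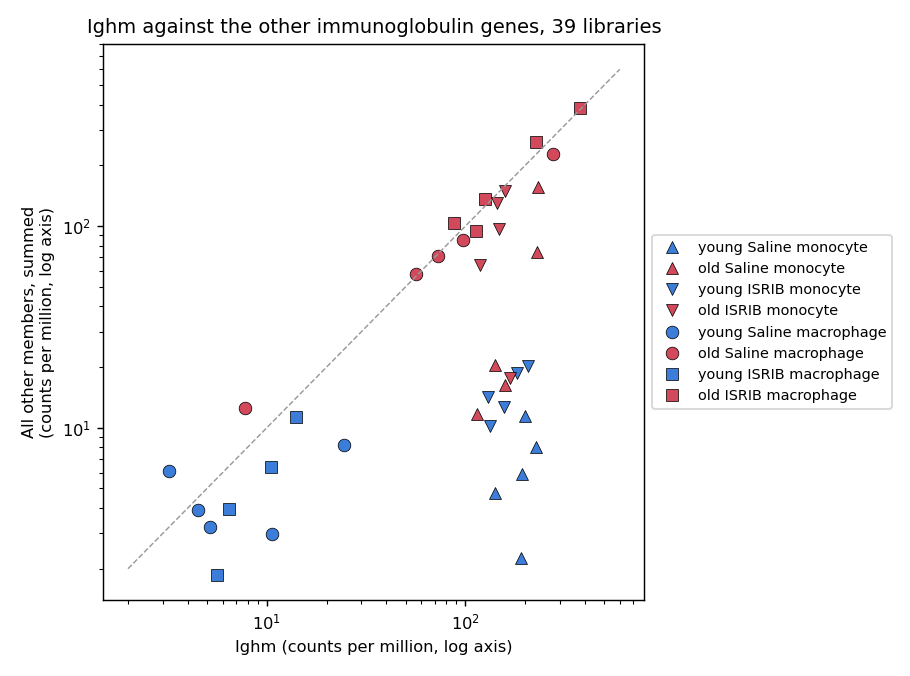
Ighm (horizontal, CPM, log axis) against the sum of all other members (vertical, CPM, log axis) in each of the 39 libraries, with the dashed line marking equal values. The 10 young monocyte libraries sit at 131 to 227 CPM of Ighm with at most 20.2 CPM of all else, while the old macrophage libraries lie along the line of equal values.

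Ighd (ENSMUSG00000104213, chromosome 12, 113406604 to 113416324) encodes the IgD heavy chain that mature naive B cells carry beside IgM. It was at 0.494, 1.16, 0, 0.145 and 1.49 CPM in young Saline macrophages and at 2.41, 5.54, 7.43, 5.68 and 4.69 CPM in old Saline macrophages, with no overlap. The rise of 2.85 ± 0.63 on the log2 scale passed the test (SE, adjusted p 0.0225) but not with limma voom (0.0561). The call was also lost without young Saline macrophage replicate 1 (0.0643), 3 (0.0551) or 4 (0.0732), or old Saline macrophage replicate 3 (0.0611) or 5 (0.0537). Under ISRIB the values were 4.24, 0.448, 0.155 and 1.07 CPM in young and 9.0, 6.70, 10.1, 5.43 and 6.85 CPM in old macrophages, and the difference was 2.28 ± 0.64 (SE, adjusted p 0.0898, but 0.00972 with DESeq2, 0.00274 without the filter on low counts and 0.00855 without young ISRIB macrophage replicate 1). Averaged over treatment Ighd rose by 2.56 ± 0.45 (SE, adjusted p 0.00108). In monocytes it ranged from 0.218 to 3.82 CPM in young Saline, 2.91 to 7.91 in young ISRIB, 3.42 to 9.74 in old Saline and 5.63 to 8.38 in old ISRIB mice, and its averaged age difference of 0.96 ± 0.28 did not pass (SE, adjusted p 0.256, but 0.0450 with DESeq2). Between kinds of cell it was lower in young Saline macrophages by -1.56 ± 0.59 on the log2 scale (SE, adjusted p 0.0220). That call was lost without young Saline monocyte replicate 1 (0.0522) or 3 (0.0779), or young Saline macrophage replicate 3 (0.0617) or 4 (0.0596).

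The kappa constant gene Igkc (ENSMUSG00000076609, chromosome 6, 70726435 to 70726966) carries the light chain of most mouse antibodies. In macrophages it was at 3.62, 0.905, 1.55, 1.74 and 0.996 CPM in young Saline and 4.05, 3.14, 0 and 2.6 CPM in young ISRIB mice. Old Saline macrophages had 21.4, 30.1, 31.5, 5.68 and 101 CPM and old ISRIB macrophages 30.3, 53.8, 143, 37.9 and 85.4 CPM. Every old macrophage library lay above every young one, and Igkc rose by 4.58 ± 0.65 (SE, adjusted p 9.79e-04) under Saline and 4.72 ± 0.67 (SE, adjusted p 4.57e-04) under ISRIB on the log2 scale. These 2 calls were kept without any 1 library and lost with limma voom (0.186 and 0.228), whereas the rise averaged over treatment, 4.65 ± 0.47 (SE, adjusted p 1.12e-06), was kept throughout.

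In monocytes Igkc was at 1.57, 0.998, 3.59, 7.62 and 0.125 CPM in young Saline, 6.76, 3.41, 3.70, 5.31 and 6.42 CPM in young ISRIB, 38.1, 5.59, 5.60, 3.42 and 14.1 CPM in old Saline, and 7.81, 24.1, 24.9, 22.5 and 17.2 CPM in old ISRIB mice. Under ISRIB the age groups did not overlap, and under Saline they did. Averaged over treatment the age difference was 2.13 ± 0.44 on the log2 scale and just missed the threshold (SE, adjusted p 0.0572). It passed with DESeq2 (0.0107), without the filter on low counts (9.04e-04) and in the fit of all 39 libraries (0.0180). It also passed without young Saline monocyte replicate 4 (0.0162), old Saline monocyte replicate 2 (0.0392) or 4 (0.0290), or old ISRIB monocyte replicate 1 (0.0486). In old Saline mice Igkc was higher in macrophages than in monocytes by 1.67 ± 0.58 (SE, adjusted p 0.0130), a call lost without old Saline macrophage replicate 5 (0.179).

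Set against Ighm, kappa RNA was scarce in young monocytes. There were 0.811, 0.707, 1.80, 3.36 and 0.0652 Igkc counts per 100 Ighm counts in young Saline monocytes and 3.29, 2.55, 2.35, 2.93 and 4.92 in young ISRIB monocytes. Old Saline monocytes had 16.4, 3.53, 3.95, 2.99 and 6.16, and old ISRIB monocytes 4.65, 16.3, 15.7, 15.6 and 14.4. Young macrophages had 0 to 40.5, on few counts, and old macrophages 32.4 to 72.9, the highest being Saline replicate 4, which had the fewest member counts of its group. Per kilobase of transcript, the ratio of the Igkc level to the Ighm level was 0.00231 to 0.119 in young Saline monocytes, 1.15 to 2.58 in old Saline macrophages and 1.19 to 1.52 in old ISRIB macrophages. Heavy variable counts per 100 Ighm counts were 0 to 1.06 in young monocytes, 0.137 to 14.2 in old monocytes, 0 to 28 in young macrophages and 0 to 22.2 in old macrophages.

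Iglc2 (ENSMUSG00000076937, chromosome 16, 19198396 to 19200351), the 1 lambda constant gene matched by symbol, was at most 2.12 CPM in any library. In macrophages it rose with age by 3.5 ± 0.83 on the log2 scale averaged over treatment (SE, adjusted p 0.0131), but passed neither under Saline (0.311) nor under ISRIB (0.0865, but 0.0369 with DESeq2 and 0.0206 in a fit of only the groups compared). Igkc held most of the light constant counts, which are those of Igkc and Iglc2 alone. In the 18 old libraries with at least 50 of them its share was 86.4% to 100%. In the 2 young libraries with as many, both young ISRIB monocytes, it was 78.5% and 86.9%. Other lambda constant genes were not counted, so these shares do not give kappa against all lambda. The 2 lambda variable members were rare, with 80 counts of Iglv1 and 35 of Iglv3 over all 39 libraries.

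Switched heavy chain classes were nearly absent in young mice and patchy in old ones. Igha (ENSMUSG00000095079, chromosome 12, 113254830 to 113260236), the IgA heavy chain gene of mucosal plasma cells, had no count in the 10 young monocyte libraries and the 4 young ISRIB macrophage libraries, and was at 0 to 0.871 CPM in young Saline macrophages. Old Saline monocytes had 53.5, 0, 0.467, 0 and 26.7 CPM and old ISRIB monocytes 0, 0.332, 69.5, 60.1 and 22.1 CPM. Old Saline macrophages had 0.941, 0.565, 3.20, 0 and 3.56 CPM and old ISRIB macrophages 18.1, 0.506, 32.6, 0 and 0 CPM. In 3 of the 4 old groups libraries above 18 CPM stood beside libraries at or near 0, and old Saline macrophages were at most 3.56 CPM.

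Under ISRIB, Igha had 440 counts in old macrophages and 0 in young ones, which put old at least 115-fold higher when young is set to 3 counts in all (edgeR adjusted p 0.0407). That call was lost with limma voom (0.468) and with the fit of all 39 libraries (0.241). It was also lost without young ISRIB macrophage replicate 1 (0.0759), 2 (0.0876), 3 (0.0887) or 4 (0.120), and 2 of the 5 old libraries had no count. The age difference of Igha averaged over treatment in macrophages passed with edgeR (adjusted p 0.0126) and not with limma voom (0.276) or the fit of all 39 libraries (0.121). In monocytes Igha had 653 counts in old against 0 in young Saline mice and 1265 against 0 under ISRIB, at least 192-fold and 399.8-fold higher. These folds are bounds on pooled counts and leave out the spread between libraries. Of the 653 counts, 462 came from old Saline monocyte replicate 1 and 187 from replicate 5. The averaged difference did not pass with edgeR (adjusted p 0.113), whereas it passed with DESeq2 (0.00196), without the filter on low counts (1.45e-04) and in the fit of all 39 libraries (0.0106).

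Single libraries were dominated by 1 switched class. Among libraries with at least 50 counts of switched heavy constant genes, Igha held 462 of 467 counts in old Saline monocyte replicate 1 and 187 of 190 in replicate 5. It held 573 of 573, 535 of 550 and 153 of 154 in old ISRIB monocyte replicates 3, 4 and 5. In old ISRIB macrophages it held 175 of 182 in replicate 1 and 261 of 292 in replicate 3. Ighg2b, an IgG heavy chain gene, held 454 of 458 in old ISRIB monocyte replicate 2 (99.1%, exact 95% interval 97.8% to 99.8%). Ighg1 held 133 of 138 in old ISRIB macrophage replicate 2 (96.4%, interval 91.7% to 98.8%). Old ISRIB macrophage replicate 5 had 406 such counts, of which 221 were Ighg2b and 185 Ighg2c. No library of old Saline macrophages reached 50 such counts, and no young library did, the highest young total being 19 in Saline macrophage replicate 2. These intervals cover counting error only, since reads of 1 cell share its class.

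**Figure D3:**
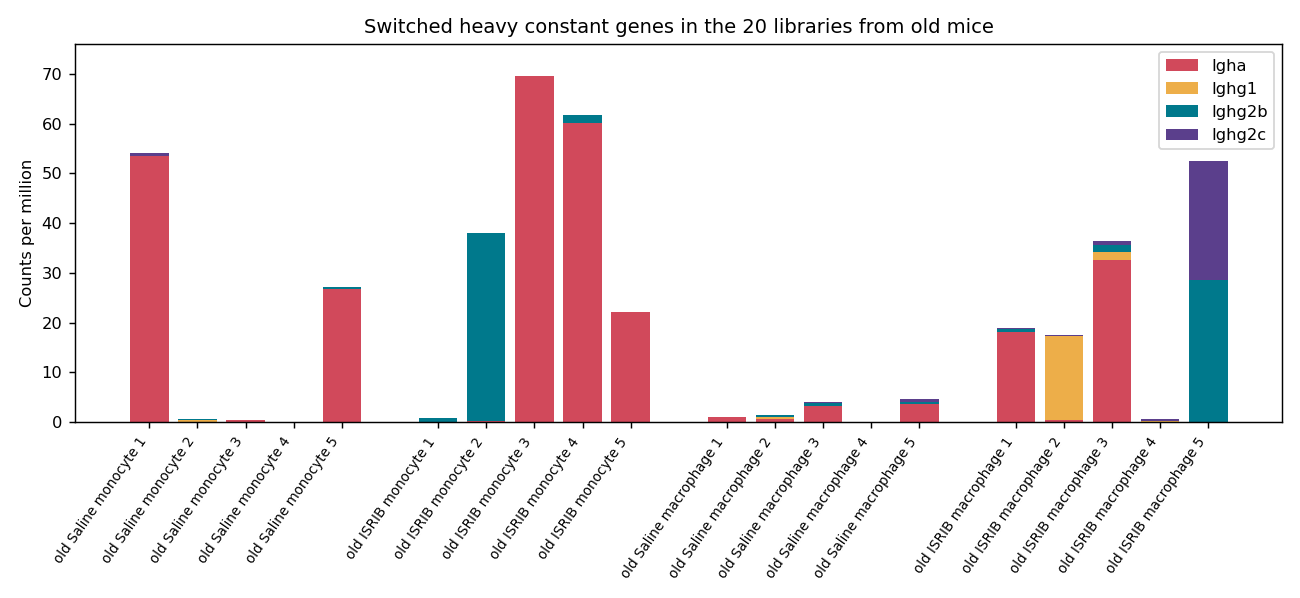
Stacked CPM of Igha, Ighg1, Ighg2b and Ighg2c in each of the 20 libraries from old mice. Igha makes up nearly the whole bar in the tallest monocyte libraries, at up to 69.5 CPM, whereas IgG genes fill the bars of ISRIB monocyte replicate 2 and of ISRIB macrophage replicates 2 and 5.

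Jchain (ENSMUSG00000067149, chromosome 5, 88519809 to 88527891), whose product joins IgM and IgA into polymers, was at most 0.544 CPM in any young library. Old Saline macrophages had 8.47, 5.09, 1.69, 0 and 20.6 CPM and old ISRIB macrophages 4.45, 7.08, 34.9, 6.31 and 17.6 CPM. In old monocytes it was at 7.65, 0, 1.87, 0.790 and 4.57 CPM under Saline and 0, 0.995, 8.74, 6.52 and 2.74 CPM under ISRIB. In macrophages 346 old counts stood against 5 young ones under Saline, a count ratio of 67.3 (interval 28.5 to 208, for counting error only). edgeR called the rise under Saline (adjusted p 0.00912) and under ISRIB (adjusted p 0.00424). limma voom made neither call (0.410 and 0.275), nor that averaged over treatment (0.0629, against 3.84e-05 with edgeR). In monocytes Jchain rose by 4.97 ± 0.95 on the log2 scale averaged over treatment (SE, adjusted p 0.0288), and 161 old counts stood against 5 young ones under ISRIB, 123 against 3 under Saline. That call was lost with limma voom (0.415) and in 11 of 20 fits that each left out 1 library. The libraries were young Saline replicates 1 (0.0736), 2 (0.0699) and 5 (0.0632), young ISRIB replicates 1 (0.0726), 2 (0.0660), 4 (0.0577) and 5 (0.0596), replicates 1 (0.0707) and 5 (0.0521) of the old Saline group, and replicates 3 (0.0714) and 4 (0.0625) of the old ISRIB group.

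Counts of members past the threshold summarise these age comparisons. Of the 9 members that could be tested in macrophages, 6 rose under Saline (Ighm, Ighd, Igkc, Jchain, Igkv3-2 and Ighv1-53) and 0 fell, beside 1.16% of 12171 genes called in either direction, 0.937% higher and 0.222% lower. Under ISRIB 6 rose, with Igha in place of Ighd, beside 0.937% of genes in either direction and 0.444% higher. Averaged over treatment all 9 tested rose, those 7 with Iglc2 and Ighv1-55, beside 4.86% of genes, of which 3.12% were higher. Of the 9, 7 (Igha, Ighd, Ighv1-53, Ighv1-55, Igkv3-2, Iglc2 and Jchain) had 10 counts in fewer than 4 young macrophage libraries and so passed the filter on low counts through the old groups. The other 69 members were too low for this test. limma voom called 0 of the 9 under either treatment, with 4 and 7 at an unadjusted p under 0.05, and 5 of the averaged differences. The shares of all genes called by limma voom are not given here, so these counts are not read as a result about the members. Without the filter on low counts 76 members could be tested, and edgeR called 16 higher under Saline, 19 under ISRIB and 36 averaged over treatment, beside 1.66%, 1.04% and 2.93% of genes called higher in those fits. These 76 were chosen by summed counts, and old libraries held 95.4% of the variable member counts. Many thus entered through the old groups, so nothing is read from these calls beside the shares of all genes.

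In monocytes 5 members were tested (Ighm, Ighd, Igkc, Igha and Jchain), and Igha and Jchain passed the filter through the old groups. edgeR called 0 with age under Saline (0.0247% of 12170 genes called) and 0 under ISRIB, where no gene was called. At an unadjusted p under 0.05 there were 4 and 3, beside 8.81% and 6.6% of genes. DESeq2 called 1 and 0, and limma voom 0 and 0. Averaged over treatment Jchain was the 1 call, beside 0.123% of genes, and 4 had an unadjusted p under 0.05, beside 8.24% of genes, while DESeq2 called 4 and limma voom 0.

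ISRIB against Saline gave no member call in either kind of cell at either age. In old macrophages edgeR called 0 of 9 members and 0 of 12171 genes, DESeq2 and limma voom also called 0 of the 9, and 8 of the 9 had no adjusted p in DESeq2. Igkv3-2 and Igha had an unadjusted p under 0.05, as had 9.14% of genes. Group means under ISRIB and Saline were 70.0 ± 45.9 and 38 ± 36.9 CPM for Igkc (SD, n = 5 each, adjusted p 0.607). For Ighm they were 187 ± 120.4 and 102 ± 103 CPM (SD, n = 5 each, adjusted p 0.661). For Ighv1-55 they were 1.12 ± 1.27 and 1.15 ± 1.62 CPM (SD, n = 5 each, adjusted p 0.994). The groups overlapped for each of the 9. Without the filter on low counts edgeR called 14 of 76 members in either direction, beside 0.312% of genes called higher. Among the 14 were Igkc (adjusted p 0.0408), Ighm (0.0391), Igha (0.00942) and Igkv3-2 (8.08e-05). The 76 were chosen by summed counts and many entered through the old groups, so nothing is read from these calls beside that share. In young macrophages edgeR called 0 of 9 members and 0 of 12171 genes. At an unadjusted p under 0.05 there were 0 members, beside 12.4% of genes. DESeq2 and limma voom called 0 of the 9, and 7 of the 9 had no adjusted p in DESeq2. In old monocytes all 3 tools called 0 of 5 with 0 at an unadjusted p under 0.05 by edgeR (7.54% of genes), and in young monocytes all 3 called 0 with 1, Ighd, at an unadjusted p under 0.05 (0.00491, beside 6.65% of genes). The difference between the age effects under ISRIB and Saline in macrophages gave 0 calls by all 3 tools, with 1 member at an unadjusted p under 0.05 by edgeR (Igha, 0.0189), beside 5.1% of genes.

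Variable gene RNA was found mostly in old mice, and the leading genes differed from library to library. Of 6964 counts of the 69 variable members, 6647 (95.4%) lay in libraries of old mice. The threshold on summed counts favours genes that are high in some library, so this share is a description of the members chosen. For 39 of the 69, a single library held over 50% of the counts, and for 14 over 80%. Ighv5-6 had 230 of 237 counts in old ISRIB macrophage replicate 3 and Ighv1-76 had 79 of 84 in old ISRIB macrophage replicate 1. The number of variable members with at least 1 count was 1 to 15 per young library and 4 to 34 per old one.

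Heavy variable use could be described in the 14 libraries with at least 50 such counts, all from old mice. No young library exceeded 20. The leading gene held 23.8% to 83.9% of the heavy variable counts (median 45.9%) and the top 3 held 63.5% to 97.5%. 9 different genes led, and Ighv1-53 led 5 libraries. Ighv1-82 held 83.9% in old ISRIB monocyte replicate 3, Ighv5-9-1 held 80% in old Saline monocyte replicate 5, and Ighv8-8 held 75.0% in old ISRIB monocyte replicate 2. Kappa variable use could be described in 15 libraries, again all old, with at most 41 counts in a young one. The leading gene held 20.1% to 83.6% (median 46.7%) and the top 3 held 49.2% to 98.2%. 10 different genes led, and Igkv3-2 led 6 libraries.

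Some libraries paired a dominant heavy variable, a dominant kappa variable and a dominant switched class. In old ISRIB monocyte replicate 2 these were Ighv8-8 at 75.0%, Igkv6-15 at 73.9% and Ighg2b at 99.1%. In old ISRIB monocyte replicate 3 they were Ighv1-82 at 83.9%, Igkv1-110 at 58.6% and Igha at 100% of the respective class counts. In old Saline monocyte replicate 5 Ighv5-9-1 held 80%, the leading kappa variable gene 50% and Igha 98.4%. Bulk reads do not tell which heavy and light chains share a cell. Other libraries were mixed: in old ISRIB macrophage replicate 1 Ighv1-76 held 41.8% and Igkv8-27 20.1%, and in old ISRIB macrophage replicate 2 Ighv1-9 held 23.8% of heavy variable counts spread over 13 genes.

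**Figure D4:**
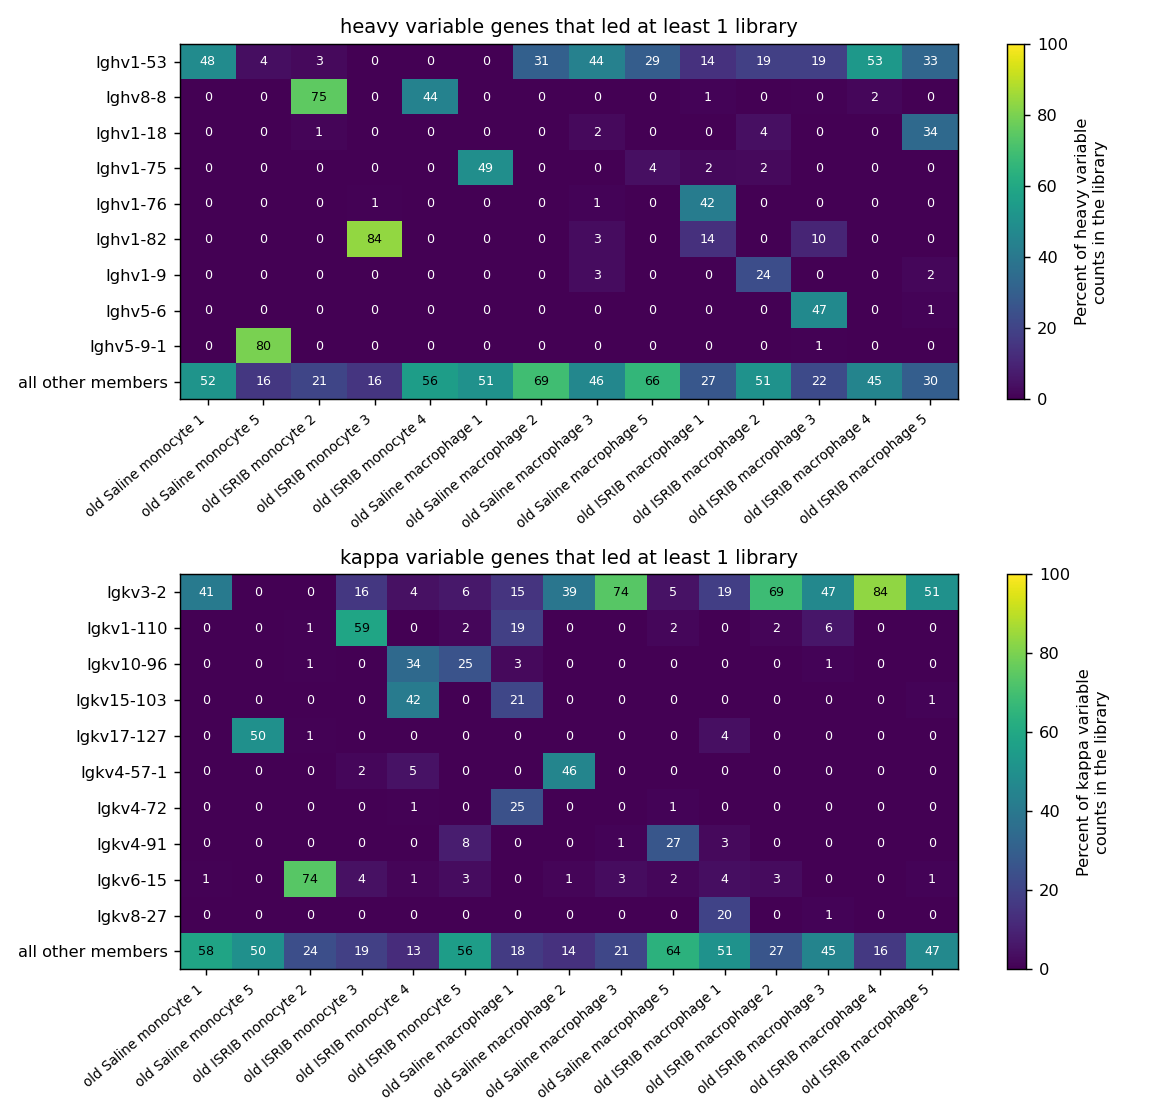
Percent of heavy variable (top) and kappa variable (bottom) counts held by each gene that led at least 1 library, in the 14 and 15 libraries with at least 50 such counts, all from old mice. Most leading genes are high in 1 column alone, whereas Ighv1-53 and Igkv3-2 recur across columns, Igkv3-2 with up to 83.6% of a library.

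Igkv3-2 and Ighv1-53, whose sequences are given above, were the 2 variable members with a count in at least 8 of the 10 old macrophage libraries, namely 9 and 8, while the other variable members reached at most 6 with a median of 3. Igkv3-2 was at 2.41, 6.90, 18.6, 0 and 2.65 CPM in old Saline and 3.62, 22.9, 44.5, 23.7 and 31 CPM in old ISRIB macrophages. Young Saline macrophages had no count, and in young ISRIB macrophages 1 of 4 libraries had 0.482 CPM. In monocytes it reached 12.3 CPM in old Saline replicate 1 and at most 2.31 CPM elsewhere. It held 14.9%, 39.1%, 73.9%, 0% and 4.71% of the kappa variable counts in old Saline macrophages, where replicate 4 had only 8 such counts, and 18.5%, 68.6%, 46.7%, 83.6% and 50.5% in old ISRIB macrophages. Under Saline 308 old counts stood against 0 young ones, at least 99.8-fold higher on pooled counts (edgeR adjusted p 0.00912). Under ISRIB 1000 stood against 5, a count ratio of 157 (interval 66.9 to 483, for counting error only, edgeR adjusted p 0.00260). The 2 calls were kept without any 1 library and lost with limma voom (0.448 and 0.345), as was that averaged over treatment (0.0934, against 3.65e-05 with edgeR). Between treatments in old macrophages it differed by 2.02 ± 0.67 on the log2 scale, which did not pass (SE, adjusted p 0.379), except without the filter on low counts (8.08e-05).

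Ighv1-53 was at 0, 2.94, 5.17, 0 and 11.3 CPM in old Saline and 2.79, 3.04, 11.4, 7.32 and 12.1 CPM in old ISRIB macrophages, and 2 of 9 young macrophage libraries had a count, at 0.129 and 0.673 CPM. Among monocyte libraries with at least 50 heavy variable counts it held 48.2% in old Saline replicate 1 and 3.75% in replicate 5, and 2.70% of counts, 0 of 186 and 0 of 126 in old ISRIB replicates 2, 3 and 4. In macrophages it held 53.2% in old ISRIB macrophage replicate 4 and 44.0% in old Saline macrophage replicate 3, but 0 of 69 in old Saline macrophage replicate 1, which allows a share of up to 5.21% (exact 95% interval). With age it had 192 against 1 counts under Saline (adjusted p 0.0148) and 294 against 6 under ISRIB, a log2 difference of 5.21 ± 1.20 (SE, adjusted p 0.0296). The Saline call was lost with limma voom (0.409), in the fit of all 39 libraries (0.0689) and without young Saline macrophage replicate 2 (0.0503) or 4 (0.0530) or old Saline macrophage replicate 5 (0.0595). The ISRIB call was lost with DESeq2 (0.0740), limma voom (0.201) and the fit of all 39 libraries (0.137). It was also lost without young ISRIB macrophage replicate 1 (0.0729), 3 (0.0872) or 4 (0.116), or old ISRIB macrophage replicate 3 (0.0761) or 5 (0.0814). The age difference averaged over treatment (adjusted p 3.00e-04) was kept by every alternative run. Its close relative Ighv1-55 had no count in a young library and 59 and 44 counts in old Saline and ISRIB macrophages, and passed averaged over treatment (adjusted p 0.0179), and within Saline (0.00749) and ISRIB (0.0334) without the filter on low counts. The averaged call was lost with DESeq2 (0.0623), limma voom (0.144) and the fit of all 39 libraries (0.0533).

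In old Saline monocyte replicate 1 both genes led, with Igkv3-2 at 40.9% of kappa variable counts and Ighv1-53 at 48.2% of heavy variable counts, followed by Ighv1-55 with 27 counts. They did not always go together: in old ISRIB monocyte replicate 3 Igkv3-2 held 19 of 116 kappa variable counts and Ighv1-53 0 of 186 heavy ones. The other most-counted variable members were high in few libraries: Igkv1-117 (256 counts, 181 of them in old ISRIB macrophage replicate 3), Ighv1-82 (237, 156 in old ISRIB monocyte replicate 3), Ighv5-6 (237), Igkv6-15 (179, 113 in old ISRIB monocyte replicate 2), Igkv6-23 (179, 96 in old ISRIB macrophage replicate 5) and Ighv8-8 (176, 111 in old ISRIB monocyte replicate 2).

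Some B cell genes were also higher in old macrophages. Of 20 genes of a B cell list, 18 were tested, and averaged over treatment 6 were higher in old macrophages and 0 lower, beside 3.12% of all genes higher, with a median log2 difference of 1.57 over the 18 beside 0.0045 over all genes. Within Saline and within ISRIB 2 of the 18 were called in each. Among the 6 were Cd79a (3.01 ± 0.45, SE, adjusted p 1.96e-04) and Cd79b (2.26 ± 0.54, SE, adjusted p 0.0139), the signalling chains of the B cell receptor, the surface proteins Ms4a1 (3.29 ± 0.60, SE, adjusted p 0.00137) and Cd37 (0.35 ± 0.094, SE, adjusted p 0.0265), and the kinase gene Blk (2.40 ± 0.56, SE, adjusted p 0.0126). Cd79a ran from 0 to 1.25 CPM in young and from 1.36 to 9.25 CPM in old macrophages, with no overlap. In monocytes 0 of 18 were called with age by edgeR, and Cd79a ran from 0.624 to 5.08 CPM in young and 1.05 to 8.05 CPM in old libraries. The summed level of the list was 244 to 314 CPM in young Saline, 247 to 387 in young ISRIB, 315 to 382 in old Saline and 365 to 444 in old ISRIB macrophages, most of it Cd22. Their part in the results for the members was not tested.

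Of 18 genes of a plasma cell list 14 were tested, and averaged over treatment Pou2af1, a coactivator of immunoglobulin transcription that B cells also express, rose in old macrophages (3.78 ± 0.55, SE, adjusted p 1.87e-04) and Tnfrsf13b fell (-0.38 ± 0.099, SE, adjusted p 0.0237), with a median of 0.024. Among the defining genes, Mzb1 was at most 2.28 CPM in any library and Tnfrsf17 was at 0 in all 20 monocyte libraries and at most 0.793 CPM in macrophages. Of 12 genes of rearrangement, switching and transport of immunoglobulin 4 were tested and 0 passed by edgeR. Averaged over treatment, 6 of 11 tested T and NK cell genes rose in old macrophages (Cd3g, Cd4, Cd8a, Lck, Trbc1 and Trbc2) and 2 of 6 tested neutrophil genes (Cxcr2 and Mmp9), beside 3.12% of all genes. Within Saline 1 T and NK cell gene was called (Cd8a) and within ISRIB 0, and 0 neutrophil genes were called within either, by edgeR. The summed T and NK cell list was 65.9 to 75.9 CPM in young Saline, 76.8 to 138 in young ISRIB, 62.7 to 126 in old Saline and 109 to 140.2 in old ISRIB macrophages, and the summed neutrophil list was 48.5 to 60.8, 52.1 to 70.7, 64.1 to 97.0 and 81.4 to 104 CPM in the same groups. In monocytes the summed T and NK cell list was 15 to 57.2 CPM in young Saline, 32.4 to 171 in young ISRIB, 37.7 to 167 in old Saline and 64.4 to 193 in old ISRIB mice. Their part in the results was not tested either.

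The genes outside the members whose log2 CPM followed the summed members most closely over the 19 macrophage libraries were Col4a2 (Pearson r 0.927) and Col4a1 (0.917), chains of basement membrane collagen, Pou2af1 (0.927), Gm4759 (0.914) and Ccnd2 (0.899), a cyclin of cell cycle entry. Within the 10 old libraries alone r was 0.742, 0.636, 0.869, 0.730 and 0.838 for these genes in that order. These are descriptions over libraries that share the split into young and old groups and their library depth.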

How the data were processed

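Per the file headers and values, the authors deposited 1 table of raw counts, whole numbers for 43430 Ensembl genes in 39 libraries made from 3 ng of RNA each. Per the submitters' processing notes, bcl2fastq 2.19.1, FastQC, Trimmomatic 0.36, STAR 2.6.0 and HTSeq 0.11.2 were used with mm10. The annotation release, the handling of reads that map to several genes and the strand setting are, for this table, not given in the sources used here, so near-identical variable genes and overlapping genes may exchange counts. Symbols, coordinates and coding sequences came from GENCODE vM21 on GRCm38, which matched 42462 of 43430 identifiers (97.8%).

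CPM was the count per 1e+06 counts of the library. Tests used edgeR 4.0.16 in R 4.3.3 (TMM scaling, filterByExpr with a minimum count of 10 and a minimum total of 15, quasi-likelihood test) with Benjamini-Hochberg adjustment over all genes tested, called at 0.05, in 19 macrophage libraries (12171 genes), 20 monocyte libraries (12170) or all 39 (13587). ± SE is that of the log2 difference. Alternatives were DESeq2 1.42.0, limma 3.58.1 (voom), no filter, other sets of libraries in the fit, the replicate number as a block, and leaving out each library. Adjusted p values in parentheses with no tool named are edgeR's. The pipeline was tested on simulated data.

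Shares carry exact Clopper-Pearson 95% intervals, and count ratios exact 95% intervals, both for counting error only. Where a group had 0 counts, the fold is a lower bound against 3 counts over that group. Constant genes and Jchain could be named whatever their values. Variable genes were named if they were among the 8 most counted, led a library with at least 50 counts of the class, or were called with at least 5 CPM. Ighv1-55, Ighv1-64, Ighv1-72 and Igkv3-4 were added for their likeness in sequence after their values were seen. The members and gene lists were chosen with earlier results of these data known, and values of 1 list gene are not reported here. No source says that replicates are separate animals, so p-values measure only the spread between these samples.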

Additional observations from a re-analysis of the deposited data

Results flagged for a closer look

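Of 53 group values examined for a library far from the others of its group, 7 stood out. The threshold passes about 1 in 20 independent groups by chance, and these values are not independent, since several come from the same library. In young Saline macrophages replicate 1 had 32.8 CPM of all members together, against at most 13.6 CPM in the other 4 libraries. In old Saline monocytes replicate 1 had 30.02 CPM of kappa variable members. In old Saline macrophages replicate 5 had 101 CPM of Igkc, against at most 31.5 CPM in the other 4. In old ISRIB macrophages replicate 2 had 16.8 CPM of Ighg1, and replicate 5 had 28.6 CPM of Ighg2b and 23.9 CPM of Ighg2c. In old ISRIB monocytes replicate 2 had 37.7 CPM of Ighg2b.

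The age effect on Ighm differed between kinds of cell by 4.03 on the log2 scale, tested as an interaction over all 39 libraries (adjusted p 2.36e-06 by edgeR). Ighm was higher in 9 of 10 old macrophage libraries than in every young one, and monocytes of both ages overlapped.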

How the results depend on the processing

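The averaged age differences of Ighm, Ighd, Igkc, Iglc2 and Ighv1-53 in macrophages kept their call under each alternative run. Counts of called members moved as follows. With limma voom 0 of 9 were called under Saline and 0 under ISRIB in place of 6 each, 5 in place of 9 averaged over treatment, 0 in place of 1 averaged in monocytes, and 2 in place of 1 between kinds of cell in old Saline mice. Without the filter, which raised the number tested to 74 to 78, the calls were 16, 19 and 36 for age in macrophages (Saline, ISRIB, averaged), 14 for ISRIB in old macrophages, 3 for the difference of age effects between treatments, 4 and 3 for age in monocytes (ISRIB, averaged), 1 for ISRIB in old monocytes, 22 between kinds of cell in old Saline mice, and 3 for the difference of age effects between kinds of cell. In those fits the shares of all genes called higher were, in the same order, 1.66%, 1.04%, 2.93%, 0.312%, 0.022%, 0.171%, 0.141%, 0.0857%, 15.7% and 0.302%. The member counts take calls in either direction, and the members were chosen by summed counts, so nothing is read from them beside these shares. DESeq2 called 1 for age in Saline monocytes in place of 0, 4 averaged in place of 1, and 2 for the difference of age effects between kinds of cell in place of 1. With only the groups compared, 3 were called for age in Saline macrophages, where 3 were tested, and 1 between kinds of cell in young Saline mice. The fit of all 39 libraries called 3 with age averaged in monocytes. Shares of all genes called are not given for DESeq2, limma voom or the other sets of libraries, so their counts describe the members alone. The cause of these moves was not tested beyond the number of genes tested.

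Leaving out 1 library gave 4 to 6 calls for age in Saline and in ISRIB macrophages, 7 to 9 averaged, 0 to 2 averaged in monocytes, 1 to 2 and 1 to 4 between kinds of cell in young and old Saline mice, 1 to 2 for the difference of age effects between kinds of cell, 5 to 9 genes of the B cell list (6 with all libraries) and 1 to 3 of the plasma cell list. The mean summed CPM was then 188 to 209.8 in young Saline, 165 to 185 in young ISRIB, 192 to 257 in old Saline and 222 to 253 in old ISRIB monocytes. In macrophages it was 9.94 to 16, 11.6 to 17.6, 115 to 236 and 287 to 431 CPM in the same order. The difference of Ighv1-55 between ISRIB and Saline in old macrophages, -0.06 on the log2 scale, turned to 0.27, 0.089 and 0.25 without old ISRIB macrophage replicates 1, 2 and 4, over a range of -0.38 to 0.27 without any 1 library.

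Samples of the same replicate number did not deviate together, with a median correlation of 0.0038 over 27 pairs in macrophages and -0.014 over 30 pairs in monocytes. With the replicate block, 6, 5 and 8 members were called for age in Saline, ISRIB and averaged macrophages and 1 gene of the plasma cell list in place of 2, and Ighv1-55 turned to 0.14 for ISRIB against Saline. The block ended the calls of Igha with age in macrophages under ISRIB (adjusted p 0.0923) and averaged (0.0505). Variable gene use could be described in libraries of old mice alone, since no young library held 50 counts of a variable class, whatever its depth.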
